A study of Mus musculus with 12 samples.

Results

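Histone genes were followed in B16F10 cells, a mouse melanoma cell line that makes melanin. All gene symbols of the count files that begin with Hist1h to Hist4h, H2af, H3f3, H1f0 or H1fx were taken, which gave 82 of 24421 symbols. By name, 68 of them were replication-dependent histones (6 of H1, 18 of H2A, 19 of H2B, 12 of H3 and 13 of H4, among them the pseudogene Hist3h2bb-ps) and 14 were replacement histones. The cells were grown in 6-well plates in 4 groups of 3 replicates. Control cells were given DMSO, at 0.025% by the labels. DAC cells were given 25 nM 5-aza-2′-deoxycytidine, a nucleoside that is built into DNA and traps DNA methyltransferases, for 72 h. SFN cells were given sulforaphane, an isothiocyanate from cruciferous vegetables, for the last 48 h. DAC+SFN cells were given 25 nM DAC for 72 h and SFN for the last 48 h. The labels give the SFN dose as 5 nM for the SFN cells and as 5 µM for the DAC+SFN cells, while the study's methods describe the same micromolar dose for both, so by the labels these groups differed in the SFN dose too. All groups were harvested at the same time and share the cell line, so the values describe a single line in culture. The comparison asks how the histone mRNAs of dividing melanoma cells respond to each drug and to both.

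Replication-dependent histone genes supply the histones that package newly copied DNA. They are clustered, mostly lack introns, and are transcribed in S phase. Their mRNAs usually end in a conserved stem-loop bound by SLBP and lack a poly(A) tail. Replacement histones such as H2A.Z, H3.3 and H1.0 are made through the cell cycle from genes that mostly have introns and polyadenylated mRNAs, and they take the place of the replication-dependent histones at promoters, enhancers and in cells that leave the cycle. The libraries were made from poly(A)-selected RNA, so for the replication-dependent genes the counts describe the polyadenylated share of their RNA and not its full amount.

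The 3′ ends of the tested genes show which of them hold the signal that a histone mRNA normally ends with, so they are printed first. In mm10 (GENCODE M21 transcripts), a stem of 6 paired bases with a loop of 4 was searched in the first 100 bases after the stop codon. It was found in 45 of the 68 replication-dependent genes, between 21 and 58 bases after the stop codon, and in 1 replacement gene, H2afx. Of the 23 genes without it, 17 had fewer than 50 annotated bases after the stop codon. The most frequent sequence was in 25 genes. The bases of the stem are in capitals.
Hist1h1c, chr13:23739512-23739527, plus strand: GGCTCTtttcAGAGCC
Hist1h2be, chr13:23585531-23585546, minus strand: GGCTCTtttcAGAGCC
Hist3h2a, chr11:58955172-58955187, plus strand: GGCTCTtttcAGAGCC
Hist1h4i, chr13:22040966-22040981, minus strand: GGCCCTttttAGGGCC
H2afx, chr9:44335240-44335255, plus strand: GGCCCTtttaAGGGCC

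In all of these genes the annotated transcript went on past the stem-loop, by 840 bases in Hist1h1c, 1861 in Hist1h2be, 1643 in Hist3h2a, 330 in Hist1h4i and 822 in H2afx. The transcripts of Hist1h1c and Hist3h2a held AATAAA, the common poly(A) signal, in their last 50 bases, and those of Hist1h2be, Hist1h4i and H2afx held the variant ATTAAA there. In Hist1h2bc the annotated transcript is spliced 9 bases after the stop codon, and no stem-loop was found. Hist2h2be had none either, and its closest match had 4 mismatches.

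Only 14 of the 82 members were at 1 CPM (counts per 1000000 counts in the same library) or more in 3 or more libraries, the filter for testing. These were 6 replication-dependent genes (the H1 gene Hist1h1c, the H2A gene Hist3h2a, the H2B genes Hist1h2bc, Hist1h2be and Hist2h2be, and the H4 gene Hist1h4i) and 8 replacement genes. None of the 12 replication-dependent H3 genes passed. At total counts of 15880957 to 27291436 per library, 1 CPM stands for 16 to 27 counts. Of the 68 members below the filter, 29 had no count in any library, 25 of them replication-dependent. Where the reads of a gene can be counted, 0 counts allow a level of up to 0.110 to 0.189 CPM (3 counts, counting error only). RNA under this level would not have been detectable. This limit does not hold for genes whose reads also align elsewhere, since such reads were discarded. In Hist2h2aa1 and Hist2h2aa2, for example, 100% of the 75-base stretches, the read length, also occur in another annotated gene. The other 37 replication-dependent genes below the filter had at most 25 counts in a library.

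The members below the filter with the most counts over the 12 libraries were H1fx with 145, Hist1h1d with 118, Hist1h1e with 114, Hist2h2bb with 94 and Hist1h4h with 93. H1fx encodes a linker histone, Hist1h1d and Hist1h1e are linker histone genes of the cluster on chromosome 13, Hist2h2bb encodes an H2B and Hist1h4h an H4. Hist1h1e overlaps Hist1h2be on the same strand, and every 75-base word of Hist2h2bb occurs in another annotated gene, so reads of these genes can be lost to their neighbours or copies. The authors discarded reads that aligned to more than 1 place. Among the replication-dependent genes, the median share of 75-base words, the read length, that also occur in another annotated gene was 78.3% for those with no count, 38.5% for the others below the filter and 18.4% for the tested ones. The part of these copies in the low counts was not tested.

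The tested replication-dependent genes also had longer annotated 3′ ends. Their 3′ UTR had a median of 1290 bases, from 376 to 2192, while that of 61 genes below the filter had a median of 89 bases, with 16 of them at 300 or more. A long 3′ UTR alone did not go with a high level: Hist1h1d had an annotated 3′ UTR of 4931 bases and a level of 0.0605 CPM per kb of exon, and Hist1h2be had 1906 bases and 0.232 CPM per kb. The order of the tested genes by level per kb, over all 12 libraries, was Hist1h2bc (13.3), Hist1h1c (5.42), Hist2h2be (4.07), Hist3h2a (2.86), Hist1h4i (1.62) and Hist1h2be (0.232).

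**Figure D1:**
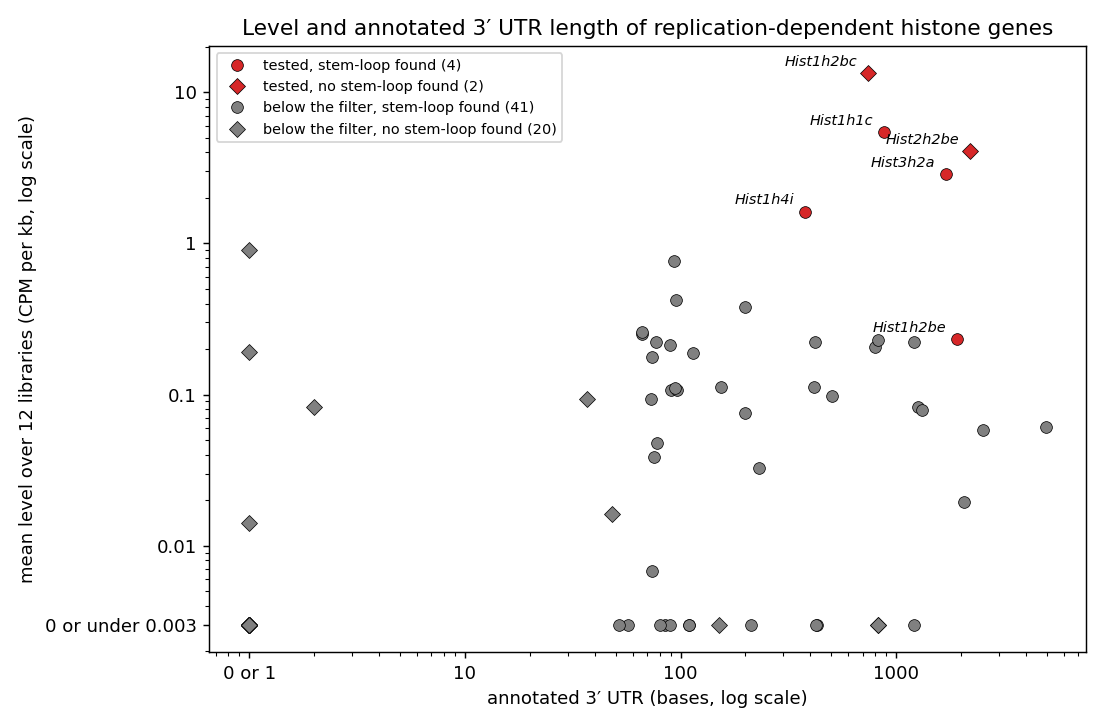
Mean level over 12 libraries (CPM per kb, log scale) against the annotated 3′ UTR length (bases, log scale, 0 and 1 drawn together) of 67 replication-dependent histone genes. Red marks the 6 tested genes and grey those below the filter, circles mark genes with a stem-loop found after the stop codon and diamonds those without. The tested genes lie at 3′ UTR lengths of 376 to 2192 bases, and genes of like length are also found at 0.

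Replication-dependent histone transcripts were higher after the combination treatment. Compared to control, 5 of the 6 tested genes rose and 0 fell, at an edgeR quasi-likelihood test with a Benjamini-Hochberg adjusted p-value under 0.05 over 11638 genes. Of all tested genes 31.6% were called in this comparison, 17.0% higher and 14.7% lower. The log2 fold changes of the 6 genes lay between 0.57 and 1.56 with a median of 0.744, and the median over all genes was 0.008. In each of the 6 genes the 3 DAC+SFN libraries were above the 3 control libraries, as they were in 15.1% of all tested genes. No tested member passed the filter through the DAC+SFN libraries alone. Hist1h2be was the closest, at 1 CPM or more in 6 libraries, and Hist1h4i reached it in 8 libraries.

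Hist1h2bc, an H2B gene at chr13:23684199-23692908, showed the largest change of the 14 tested members. Its level in replicates 1, 2 and 3 was 6.07, 11 and 7.34 CPM in control, 10.1, 16.5 and 14.7 CPM with DAC, 12.7, 21.1 and 13 CPM with SFN, and 24.2, 31.8 and 15.6 CPM with DAC+SFN. In every replicate the order was control lowest and DAC+SFN highest, and replicate 2 was the highest of each group. Compared to control the log2 fold change was 1.56 (SE 0.17, adjusted p = 1.62e-05) with DAC+SFN, a 2.95-fold rise, and 0.94 (SE 0.17, adjusted p = 0.00217) with SFN. With DAC it was 0.79 (SE 0.17), with an adjusted p of 0.088 that missed the threshold. DESeq2's Wald test called it also with DAC.

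Hist1h1c, which encodes the linker histone H1.2 (chr13:23738808-23740367), stood at 4.92, 5.03 and 8.42 CPM in control replicates 1, 2 and 3 and at 12.9, 13.7 and 8.72 CPM with DAC+SFN. The difference was large in replicates 1 and 2 (log2 1.39 and 1.45) and close to 0 in replicate 3 (0.05). With DAC the level was 6.54, 7.46 and 9.51 CPM, and with SFN 5.83, 10.3 and 8.13 CPM, so both single treatments overlapped with control. The log2 fold change with DAC+SFN was 0.97 (SE 0.23, adjusted p = 0.00532), and neither single treatment passed the test (adjusted p = 0.634 with DAC and 0.261 with SFN).

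Hist2h2be, an H2B gene of the cluster on chromosome 3 (chr3:96221119-96223738), had narrow control values of 8.23, 7.40 and 7.90 CPM. They were 9.23, 10.9 and 8.23 CPM with DAC, 9.73, 15.6 and 11.6 CPM with SFN, and 12.1, 14.8 and 12.2 CPM with DAC+SFN. The SFN and DAC+SFN libraries were all above control, and both overlapped with each other. The log2 fold change compared to control was 0.64 (SE 0.14, adjusted p = 0.00664) with SFN and 0.72 (SE 0.14, adjusted p = 0.00127) with DAC+SFN. The SFN call was lost without control replicate 2 (adjusted p = 0.0614) and without SFN replicate 2 (adjusted p = 0.0656).

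Hist3h2a, an H2A gene on chromosome 11 (chr11:58954685-58956830), rose from 4.18, 4.43 and 5.03 CPM in control to 7.32, 9.81 and 5.13 CPM with DAC+SFN. Replicate 3 again showed little difference (log2 0.03). Its levels were 4.76, 7.21 and 6.70 CPM with DAC and 6.25, 7.15 and 5.76 CPM with SFN. The SFN libraries were all above control but were not called (adjusted p = 0.109). The log2 fold change with DAC+SFN was 0.69 (SE 0.19, adjusted p = 0.0135), and the call was lost without control replicate 2 (adjusted p = 0.099), DAC+SFN replicate 1 (0.0688) or DAC+SFN replicate 2 (0.0925). On the same strand the gene overlaps Trim17, and the strand setting of the counting is not given in the sources used here.

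Hist1h2be and Hist1h4i were near the limit of the filter. Hist1h2be, an H2B gene, had 16, 28 and 13 counts in control and 32, 37 and 26 counts with DAC+SFN, or 0.736, 1.20 and 0.667 against 1.46, 1.77 and 1.21 CPM. Its log2 fold change of 0.76 (SE 0.28) was called at an adjusted p of 0.0488, and the call was lost without any control library (adjusted p from 0.0662 to 0.166) and without DAC+SFN replicate 1 (0.193) or 2 (0.116). It was also lost with the size factors of DESeq2 (0.0509), its Wald test (0.148), no filter on low counts (0.101), the robust fit (0.053) and only the groups compared (0.105). Hist1h4i, an H4 gene, had 0.690, 1.16 and 1.13 CPM in control and 1.46, 1.58 and 1.35 CPM with DAC+SFN. The log2 difference of 0.57 (SE 0.26, adjusted p = 0.106) missed the threshold. Both genes were within 0.658 to 1.53 CPM in the DAC and SFN libraries, and neither was called there.

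**Figure D2:**
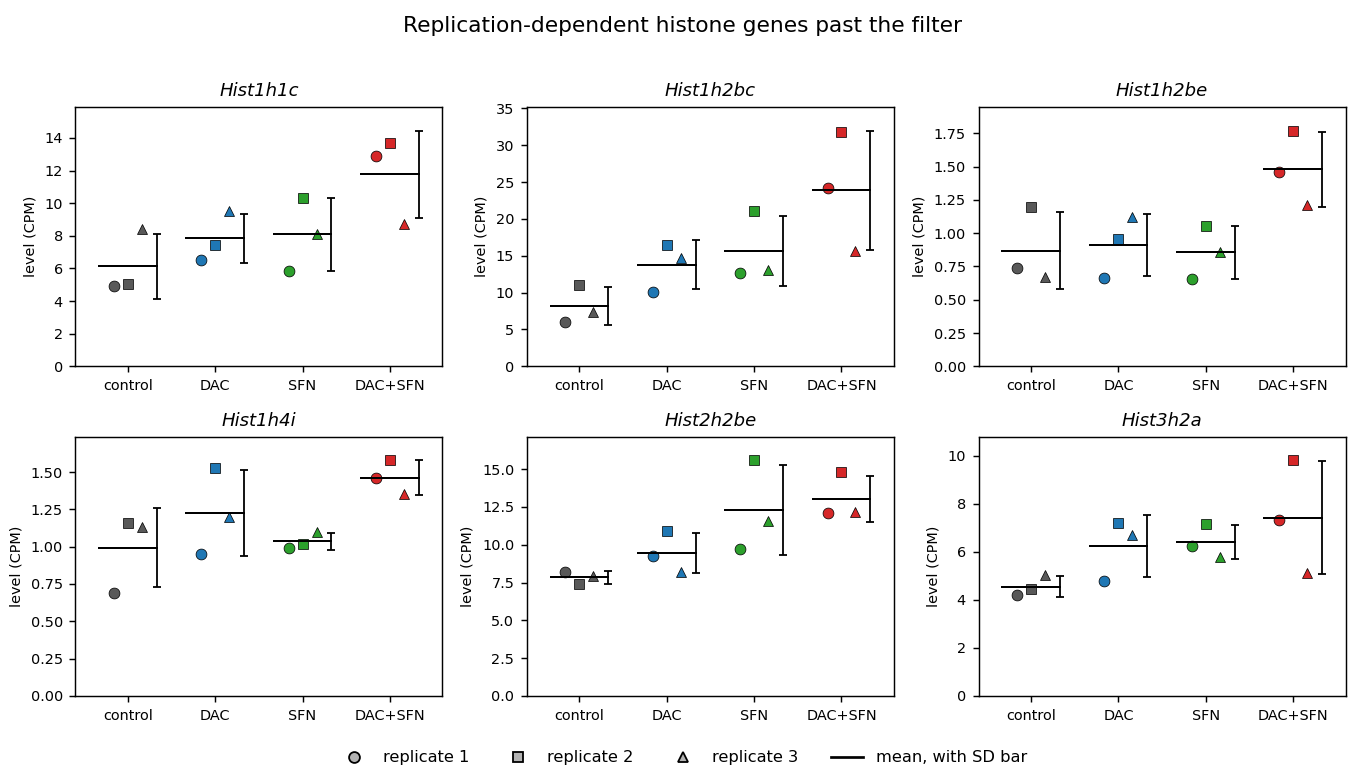
Level (CPM, linear axis from 0) of the 6 tested replication-dependent histone genes in each library of control, DAC, SFN and DAC+SFN. Symbols mark replicates 1, 2 and 3, lines the means and bars the SD (n = 3). The DAC+SFN points lie above the control points in each panel, and the third replicate is the lowest of the DAC+SFN points in each gene but Hist2h2be.

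Summed over the 6 tested genes, the replication-dependent histones made up 28.5 ± 3.19 CPM in control (mean ± SD, n = 3), 39.5 ± 6.40 CPM with DAC, 44.3 ± 10.6 CPM with SFN and 59.0 ± 14.6 CPM with DAC+SFN. The DAC+SFN libraries held 59.4, 73.4 and 44.2 CPM and the control libraries 24.8, 30.2 and 30.5 CPM, so the lowest of the treated was above the highest control. The 62 genes below the filter did not follow this order. Their sum was 5.33 ± 2.94 CPM in control, 4.12 ± 1.55 CPM with DAC, 4.16 ± 1.11 CPM with SFN and 5.26 ± 0.605 CPM with DAC+SFN, with all 4 groups overlapping. Of these genes, 2 are named after their values were seen. In a fit without the filter Hist1h3d rose with DAC+SFN, from 1, 3 and 1 counts to 6, 12 and 10 counts (adjusted p = 0.0306), and Hist2h2bb fell, from 6, 12 and 15 counts to 2, 3 and 4 counts (adjusted p = 0.0443). At such counts the ratios have wide errors.

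Other RNAs that lack a poly(A) tail were measured beside these genes, since they pass a poly(A) selection only as a remainder. Of 130 such genes in the files (small nucleolar, small nuclear and other structural RNAs), 22 were tested, and 2 rose and 0 fell with DAC+SFN compared to control. With SFN 3 rose and 0 fell. These counts are 9.09% of the list with DAC+SFN, where 31.6% of all genes were called, and 13.6% with SFN, where 13.9% were. Snora7a, a small nucleolar RNA, was called in both (log2 fold change 0.97 with SFN and 1.02 with DAC+SFN), Snord83b too (0.86 and 1.03), and Snora65 with SFN (0.58). The count with SFN was 0 without control replicate 1 or any SFN library, and that with DAC+SFN was 1 without control replicate 1 or DAC+SFN replicate 1 or 2. Of the 22 tested, 19 were higher and 3 lower with SFN, and 17 were higher and 5 lower with DAC and with DAC+SFN. Their median log2 fold change was 0.265 with DAC, 0.613 with SFN and 0.333 with DAC+SFN. For the 6 tested replication-dependent genes the medians were 0.333, 0.450 and 0.744. By edgeR, 12 of the 22 had an unadjusted p under 0.05 with SFN, beside 28.8% of all genes. There were 3 with DAC, beside 10.1%, and 6 with DAC+SFN. The summed level of the 130 genes was 36.9 to 63.7 CPM in control and 43.6 to 57.5 CPM with DAC. It was 53.6 to 64.4 CPM with SFN and 44.9 to 59.8 CPM with DAC+SFN, so all groups overlapped. Its part in the histone values was not tested.

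Replacement histone transcripts were far more abundant and mostly lower after the combination treatment. Compared to control, 6 of the 8 tested genes fell (H1f0, H2afz, H2afv, H2afy, H3f3a and H3f3b), 1 rose (H2afj) and H2afx was not called. Of all tested genes 31.6% were called in this comparison, 14.7% lower and 17.0% higher. The log2 fold changes of the 8 genes lay between -0.77 and 0.60 with a median of -0.296, and the median over all genes was 0.008. By level per kb over 12 libraries, H2afz was highest (337 CPM per kb), followed by H3f3b (206), H3f3a (90.8), H1f0 (69.5), H2afx (35.2), H2afj (30.9), H2afv (17.4) and H2afy (15.5). The sum of the 8 genes was 2119 ± 215 CPM in control, 1994 ± 212 CPM with DAC, 1903 ± 264 CPM with SFN and 1636 ± 250 CPM with DAC+SFN.

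H1f0, which encodes the linker histone H1.0 that accumulates in cells that stop dividing (chr15:79028450-79030504), had the largest decrease. Its level was 173, 163 and 208 CPM in control replicates 1, 2 and 3, 158, 129 and 185 CPM with DAC, 125, 102 and 147 CPM with SFN, and 107, 83.3 and 133 CPM with DAC+SFN. All SFN and DAC+SFN libraries were below all control libraries, and in each replicate the order was control, DAC, SFN and DAC+SFN from high to low. Compared to control the log2 fold change was -0.55 (SE 0.06, adjusted p = 5.2e-05) with SFN and -0.77 (SE 0.06, adjusted p = 1.74e-06) with DAC+SFN, and -0.21 (SE 0.06, adjusted p = 0.2) with DAC. These calls held when any 1 library was left out.

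H2afz and H2afv encode the 2 forms of H2A.Z, a variant found at promoters and regulatory regions. H2afz had 642, 625 and 830 CPM in control, 653, 575 and 751 CPM with DAC, 531, 470 and 748 CPM with SFN, and 381, 358 and 626 CPM with DAC+SFN. Replicate 3 was the highest of every group, so that DAC+SFN replicate 3 lay within the range of control although each replicate fell against its own control. The log2 fold change was -0.28 (SE 0.08, adjusted p = 0.0307) with SFN and -0.65 (SE 0.08, adjusted p = 5e-05) with DAC+SFN. The SFN call was lost without control replicate 1 or 2 or any SFN library (adjusted p from 0.0607 to 0.168), and that with DAC+SFN was kept without any 1 library. Of the 75-base words of H2afz, 61.7% also occur in another annotated gene, so its counts can miss reads. H2afv had 33.2, 33.0 and 32.1 CPM in control and 20.5, 21.9 and 23.7 CPM with DAC+SFN, with no overlap (log2 -0.57, SE 0.08, adjusted p = 0.00013). Its DAC and SFN libraries lay between, at 27.1 to 31.7 CPM, and were not called.

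H2afy encodes macroH2A1, a large H2A variant of repressed chromatin. It fell from 112, 127 and 112 CPM in control to 101, 97.1 and 102 CPM with SFN and 94.8, 89.8 and 91.3 CPM with DAC+SFN, and the groups did not overlap. Against control the log2 fold change was -0.22 (SE 0.06, adjusted p = 0.0259) with SFN and -0.34 (SE 0.06, adjusted p = 0.000836) with DAC+SFN. The SFN call was lost without control replicate 2 (adjusted p = 0.179), SFN replicate 1 (0.0725) or SFN replicate 2 (0.175).

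H3f3a and H3f3b encode the same H3.3 protein from separate genes, and both changed by small amounts. H3f3a had 344, 297 and 373 CPM in control and 280, 234 and 347 CPM with DAC+SFN, which overlapped although each replicate was lower than its control. H3f3b had 633, 636 and 708 CPM in control and 545, 504 and 626 CPM with DAC+SFN, and these did not overlap. Their log2 fold changes with DAC+SFN were -0.25 (SE 0.06, adjusted p = 0.00445) and -0.24 (SE 0.05, adjusted p = 0.00245). Neither gene was called with DAC or SFN alone.

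H2afj and H2afx did not follow the other replacement genes. H2afj, the gene of the H2A variant H2A.J, had 33.7, 48.5 and 49.6 CPM in control and 66.5, 99.8 and 38.3 CPM with DAC+SFN, so that it was higher in replicates 1 and 2 and lower in replicate 3. Its log2 fold change of 0.60 (SE 0.22) was called at an adjusted p of 0.0486, and the call was lost without control replicate 1 or 2 or DAC+SFN replicate 1 or 2 (adjusted p from 0.189 to 0.258), under the Wald test of DESeq2 (0.16) and in the robust fit (0.209). H2afx, which encodes the H2A.X that is phosphorylated at DNA breaks, had 44.3, 44.1 and 53.0 CPM in control, 38.5, 46.8 and 58.4 CPM with DAC, 48.2, 61.9 and 53.1 CPM with SFN, and 42.8, 59.1 and 34.6 CPM with DAC+SFN. All groups overlapped, and the log2 fold change with DAC+SFN was -0.06 (SE 0.15, adjusted p = 0.808). Of the 8 replacement genes it alone held a histone stem-loop after its stop codon.

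**Figure D3:**
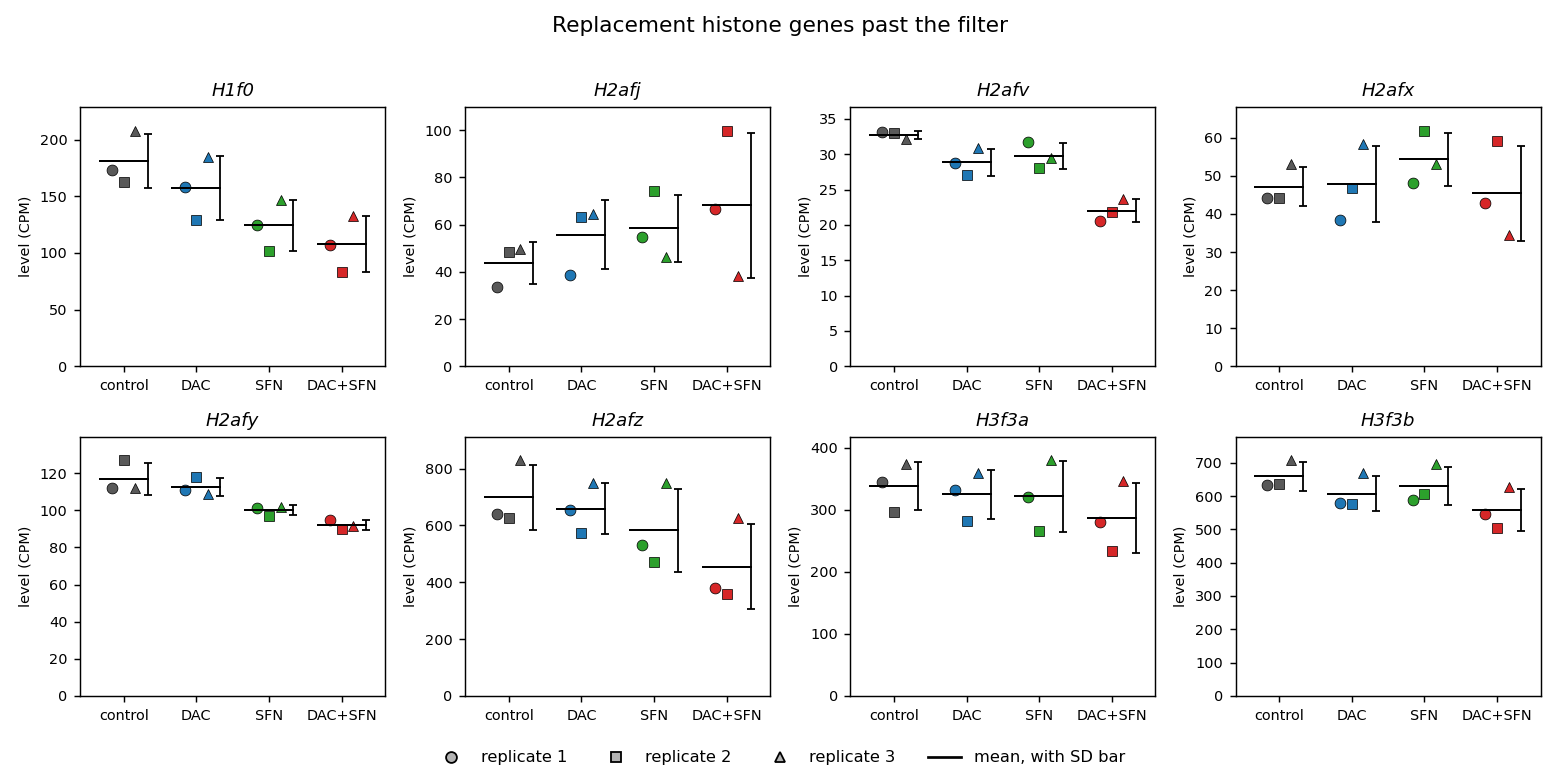
Level (CPM, linear axis from 0) of the 8 tested replacement histone genes in each library of control, DAC, SFN and DAC+SFN. Symbols mark replicates 1, 2 and 3, lines the means and bars the SD (n = 3). H1f0, H2afv and H2afy step down to the DAC+SFN libraries with no overlap with control, while in H2afz and H3f3a the third replicate stands above the others in every group.

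With SFN single treatment, 2 of the 6 replication-dependent genes rose (Hist1h2bc and Hist2h2be) and 3 of the 8 replacement genes fell (H1f0, H2afy and H2afz), where 13.9% of all tested genes were called, 8.27% higher and 5.65% lower. With DAC single treatment no histone gene was called by edgeR, where 0.180% of all genes were. At an unadjusted p under 0.05 there were 2 replication-dependent and 3 replacement genes, beside 10.1% of all genes, and DESeq2's Wald test called 1 and 0. The log2 differences with DAC were above 0 for all 6 tested replication-dependent genes (0.10 to 0.79), as for 6035 of all 11638 genes. In 5 of the 6 all 3 replicates were higher, while Hist1h2be (0.10, SE 0.30) was higher in 1 replicate only. With a fold change above 2 also required, Hist1h2bc with DAC+SFN was the only call among the members, where 2.66% of all genes passed with DAC+SFN and 1.28% with SFN.

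**Figure D4:**
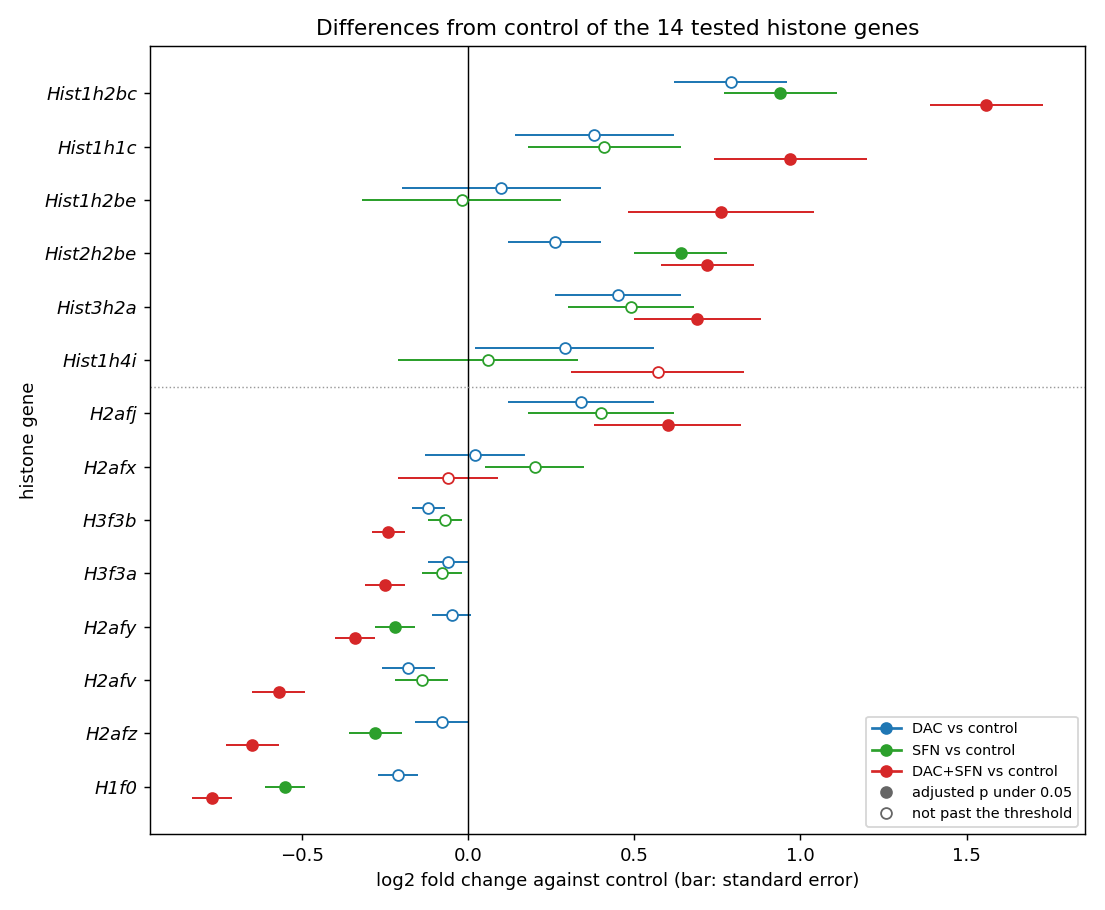
Log2 fold change against control of the 14 tested histone genes with DAC (blue), SFN (green) and DAC+SFN (red), with bars of 1 standard error; filled points had an adjusted p-value under 0.05. Replication-dependent genes are above the dotted line and replacement genes below it, and with DAC+SFN the filled points run from 0.60 to 1.56 on the right and from -0.77 to -0.24 on the left.

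The combination was also compared to each single treatment. Compared to DAC, Hist1h2bc (log2 fold change 0.76, adjusted p = 0.00572) and Hist2h2be (0.47, adjusted p = 0.0307) rose, and H1f0 (-0.55, adjusted p = 7.2e-05), H2afz (-0.57), H2afv (-0.39), H2afy (-0.29) and H3f3a (-0.19, adjusted p = 0.0375) fell, where 16.1% of all genes were called, 9.55% higher and 6.60% lower. The call of Hist2h2be was lost without any DAC library or without DAC+SFN replicate 1 or 2 (adjusted p from 0.0673 to 0.103), and that of H3f3a without DAC or DAC+SFN replicate 1 or 2 (adjusted p from 0.128 to 0.155). In a fit of the DAC and DAC+SFN samples alone, Hist2h2be (adjusted p = 0.0592 by edgeR), H3f3a (0.222) and H2afy (0.0551) were not called. Compared to SFN, H2afv (-0.43, adjusted p = 0.0272) and H2afz (-0.37, adjusted p = 0.0388) fell and no replication-dependent gene was called by edgeR, where 1.61% of all genes were. There, 3 replication-dependent genes had an unadjusted p under 0.05, beside 17.8% of all genes, and DESeq2's Wald test called 1, Hist1h2bc. The call of H2afv was lost without SFN replicate 1 or 3 or DAC+SFN replicate 1 or 2 (adjusted p from 0.0503 to 0.23), and that of H2afz without any SFN library or without DAC+SFN replicate 1 or 2 (adjusted p from 0.0522 to 0.288). For the interaction, which asks whether both drugs together differ from the sum of their log2 effects, no histone gene was called by edgeR or by DESeq2, and 0% of all genes were called by edgeR. At an unadjusted p under 0.05 there were 0 replication-dependent and 2 replacement genes, beside 5.87% of all genes.

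The ratio of replication-dependent to replacement transcripts was also taken within each library. The summed CPM of the 6 replication-dependent genes was 1.23%, 1.53% and 1.29% of that of the 8 replacement genes in control replicates 1, 2 and 3. It was 1.67%, 2.45% and 1.86% in the DAC libraries, 2.01%, 3.30% and 1.83% in the SFN libraries and 3.86%, 5.07% and 2.30% in those of DAC+SFN. In each replicate it was lowest in control and highest with DAC+SFN. All libraries of the 3 treatments were above all control libraries, the lowest of them by a small margin. As H2afz and H3f3b hold most of the replacement sum, this ratio mainly sets the Hist genes against these 2.

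**Figure D5:**
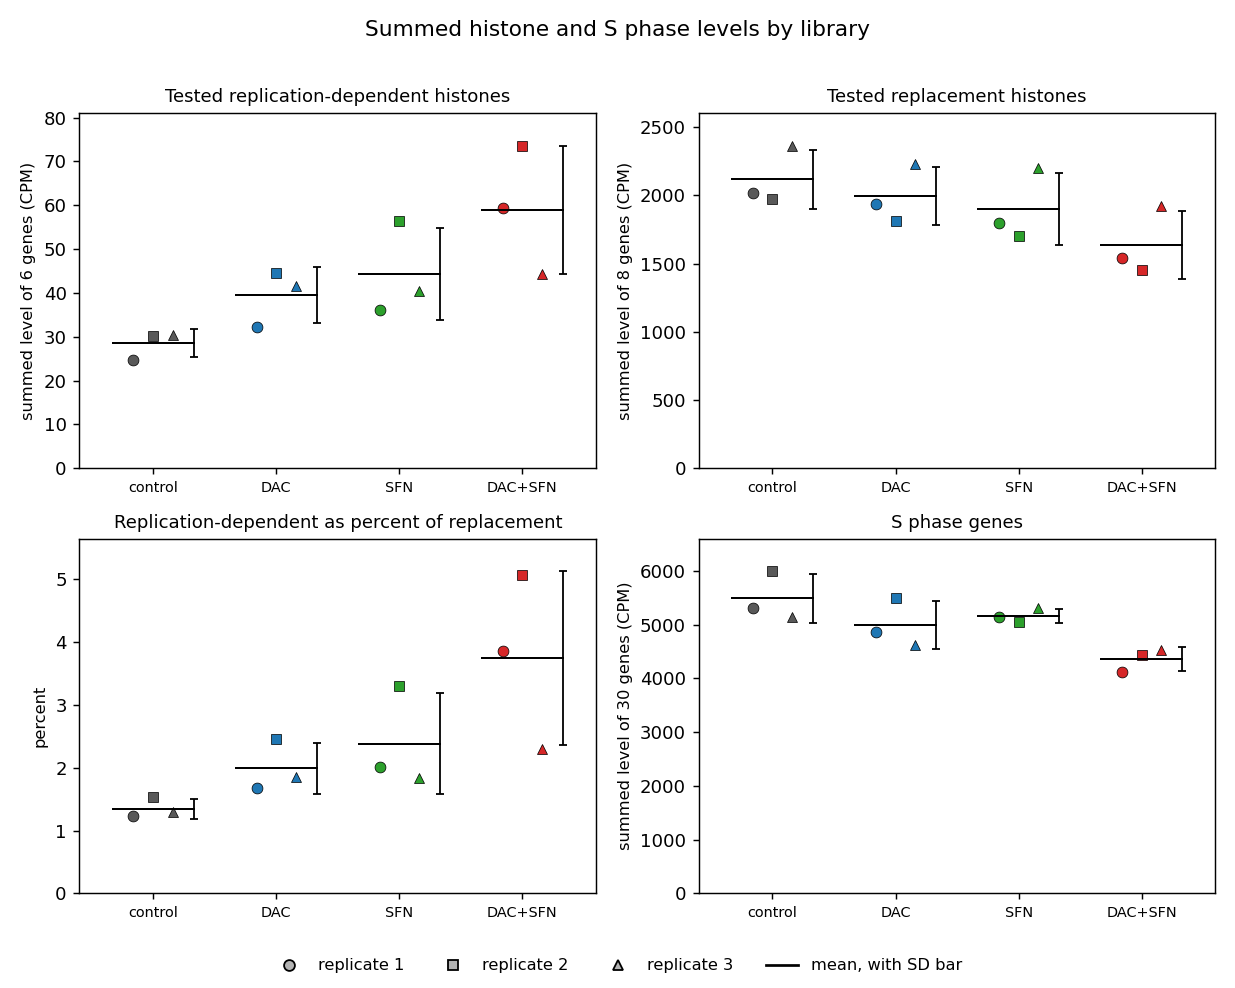
Summed levels by library (CPM, linear axes from 0) of the 6 tested replication-dependent histone genes, the 8 tested replacement histone genes and 30 S phase genes, with the replication-dependent sum as a percent of the replacement sum. Symbols mark replicates 1, 2 and 3, lines the means and bars the SD (n = 3). The percent rises from 1.23 to 1.53 in control to 2.30 to 5.07 with DAC+SFN, while the S phase sum is lowest with DAC+SFN.

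The genes around the histones were taken from lists of the pathway. Of 30 S phase genes, which copy DNA and make its building blocks, 1 rose and 25 fell with DAC+SFN compared to control. These are 86.7% of the list, where 31.6% of all genes were called. The median of the log2 fold changes of the 30 genes was -0.368. With SFN 1 rose and 2 fell (10.0%, below the 13.9% of all genes), and the count of 3 was 1 without control replicate 1 or 2 or SFN replicate 2. Gins1, a subunit of the replicative helicase, fell from 23.1 ± 1.60 to 13.1 ± 3.07 CPM (log2 -0.83), Rfc4 of the clamp loader by 0.56 and the helicase factor Cdc45 by 0.55 on the log2 scale. The summed level of the list was 5148 to 6002 CPM in control, 4621 to 5494 CPM with DAC, 5057 to 5310 CPM with SFN and 4114 to 4537 CPM with DAC+SFN, so the DAC+SFN libraries were below all others. In bulk RNA, fewer cells in S phase and less of these RNAs per cell cannot be told apart. By flow cytometry, the study reported a normal cell cycle distribution in control and treated cells and no significant difference in G2/M. Its text gives no S phase percentage by group.

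Of 25 genes that make or degrade histone mRNA, 0 rose and 6 fell with DAC+SFN compared to control, or 24.0% of the list, which is below the 31.6% of all genes called. That count was 2 without control replicate 1 or 2 or DAC+SFN replicate 2, and 3 without DAC+SFN replicate 1. By edgeR none was called with DAC or SFN alone, where 0 and 3 had an unadjusted p under 0.05, beside 10.1% and 28.8% of all genes. Slbp, which binds the stem-loop, had 91.8 ± 5.68 CPM in control and 74.6 ± 10.7 CPM with DAC+SFN (log2 -0.30, adjusted p = 0.00408), and 91.9 ± 10.0 CPM with SFN. The cleavage factor subunit Clp1 fell by 0.39 on the log2 scale with DAC+SFN (adjusted p = 0.00508). Npat, the activator of histone gene transcription in S phase, fell by 0.23 (adjusted p = 0.0404) and its partner Casp8ap2 (FLASH) by 0.28 (adjusted p = 0.029), and both calls were lost without control or DAC+SFN replicate 1 or 2 (adjusted p from 0.122 to 0.213 for Npat and from 0.07 to 0.168 for Casp8ap2).

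Of 34 genes for histone chaperones, histone deposition and the centromeric H3, 4 rose and 15 fell with DAC+SFN (55.9% of the list), with a median of -0.180. With SFN 1 rose and 6 fell (20.6%). Of all genes 31.6% were called with DAC+SFN and 13.9% with SFN. The 19 calls with DAC+SFN became 12 without control replicate 2, and the 7 with SFN became 0 without control replicate 1 or 2 and 1 without SFN replicate 1 or 2. Nasp, a chaperone of H3 and H4 and of linker histones, fell from 144 ± 3.17 to 93.1 ± 15.5 CPM (log2 -0.64, adjusted p = 9.7e-05). Chaf1b, a subunit of the CAF-1 complex that loads histones on new DNA, fell by 0.54 (adjusted p = 0.000239) and Cenpa, the centromeric H3, by 0.44 (adjusted p = 0.000131) on the log2 scale. Ipo4, an importin that carries H3 and H4 into the nucleus, rose from 79.6 ± 14.7 to 127 ± 30.9 CPM (log2 0.66, adjusted p = 0.000124).

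The promoters of 2 genes that rose and of H2afz, which fell, are printed to show the sequence these genes share and where they differ (RefSeq starts, GRCm38.p6, 250 bases before the start of the gene, plus strand). Capitals mark CCAAT and the octamer ATTTGCAT on either strand.
Hist1h1c, chr13:23738557-23738806: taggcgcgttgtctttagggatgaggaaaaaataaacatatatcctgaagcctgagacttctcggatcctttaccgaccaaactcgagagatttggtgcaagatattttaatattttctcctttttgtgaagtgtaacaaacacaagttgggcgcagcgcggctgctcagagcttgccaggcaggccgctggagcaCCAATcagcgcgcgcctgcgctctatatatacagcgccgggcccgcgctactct
Hist3h2a, chr11:58954435-58954684: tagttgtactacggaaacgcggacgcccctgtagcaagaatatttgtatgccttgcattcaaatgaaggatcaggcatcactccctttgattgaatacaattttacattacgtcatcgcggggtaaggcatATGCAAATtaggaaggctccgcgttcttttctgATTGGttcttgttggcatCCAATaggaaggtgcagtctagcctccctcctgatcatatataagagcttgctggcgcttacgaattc
H2afz, chr3:137864237-137864486: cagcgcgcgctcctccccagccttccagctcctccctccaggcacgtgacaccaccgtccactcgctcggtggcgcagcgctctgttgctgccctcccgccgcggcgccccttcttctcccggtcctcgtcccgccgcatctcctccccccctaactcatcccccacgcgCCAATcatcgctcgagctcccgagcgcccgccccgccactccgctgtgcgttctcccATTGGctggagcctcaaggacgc

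Hist1h1c held CCAAT 54 bases before the start, Hist3h2a held it at 86 and 68 and the octamer at 119, and H2afz held CCAAT at 80 and 23. Windows of 300 bases around the start were found for 72 members, 61 of them replication-dependent, and 4 motifs were searched on both strands, whose matches may overlap each other. TATAAA was in 57.4% of the 61 windows and in 15.7% of those of 27025 genes, CCAAT in 85.2% and 41.1%, the octamer in 23.0% and 1.97%, and TTTCGCGC in 14.8% and 0.374%. Some of these windows overlap, since many of the genes lie head to head and share 1 stretch between them. Of the 11 replacement genes with a window, 8 held CCAAT and 1 held TATAAA. Hist1h2bc and Hist2h2be were not matched and their promoters were not analysed here.

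The replicate number was called for Hist1h2bc and for H1f0, H2afz, H3f3a and H3f3b, or 1 of 6 replication-dependent and 4 of 8 replacement genes, where 33.9% of all genes were called. For the 14 tested histone genes together this is close to the share of all genes. The means over the 4 groups in replicates 1, 2 and 3 were 141, 119 and 168 CPM for H1f0 and 552, 507 and 739 CPM for H2afz, lowest in replicate 2 and highest in replicate 3, while Hist1h2bc had 13.3, 20.1 and 12.7 CPM and was highest in replicate 2. The library numbers in the labels follow the replicate number, so a batch of libraries and the replicate cannot be told apart. All 7 melanocyte markers searched, such as Tyr and Pmel, passed the filter, at a sum of 21399 to 30137 CPM. Of 5 leukocyte and 3 endothelial markers none passed, and Adgre1 and Cdh5 had no count. Of 5 fibroblast markers Col1a1 and Pdgfra passed. The fibroblast sum went with the replicate number, at 63.2 to 92.0 CPM in replicate 1, 18.1 to 26.3 CPM in replicate 2 and 247 to 359 CPM in replicate 3. Most of this sum was Col1a1, at 15.6 to 356 CPM over the libraries. Pdgfra had 1.22 to 2.99 CPM, Col3a1 at most 0.770 CPM, and Dcn and Lum 0 to 3 counts. The part of this sum in the histone values was not tested.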

How the data were processed

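B16F10 cells were sequenced in 12 samples of 4 groups, and the group and replicate were taken from the labels. The authors deposited counts of reads per gene symbol. They prepared TruSeq stranded libraries after poly(A) selection, trimmed reads with Trimmomatic 0.38 after FastQC 0.11.7, aligned them to mm10 with TopHat2 2.1.1 and counted uniquely aligned reads with HTSeq in Blast2GO. The counting annotation and strand setting are not given in the sources used here. No normalization or filter had been applied.

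From these counts, CPM scaled by TMM factors were computed. Genes at 1 CPM or more in 3 or more libraries (11638) were tested in edgeR 4.0.16 (R 4.3.3) with the legacy quasi-likelihood F-test, two-sided, on all 12 samples, with a block for the replicate number where the study had a batch term. P-values were adjusted by Benjamini-Hochberg over all tested genes, and the threshold was 0.05. Fold changes used a prior count of 0.125, and the SE is the log2 fold change over the square root of F. The study describes 3 independent biological repeats. After the group means were removed, samples of the same replicate number correlated across genes by 0.544 on average over 18 pairs (0.270 to 0.732), so the numbers pair the samples. The pairing comes from the labels' replicate numbers. Between replicates of a group the chi-square per gene was 12.6 to 34.3, so none were copies. Several members share an Entrez identifier with another symbol, so genes were followed by symbol. The fit was tested on simulated data.

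Transcripts came from GENCODE M21 (all 82 members matched) and promoters from RefSeq. The genes named were members called in any comparison, all replacement genes past the filter, the highest per class by CPM per kb, the 5 most counted below the filter, Slbp, Npat and Cenpa, and the 3 called genes of each list with the largest change. The members, lists and rule were chosen with earlier results of these data known. Alternatives were DESeq2 1.42.0 (size factors, Wald test), no filter, a minimum of 10 counts in all samples, a robust fit, the fit with no replicate block, the compared groups alone, a prior count of 2, raw library totals, a fold change above 2, and each sample left out. Python 3.11.15 and matplotlib 3.10.9 drew the plots.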

Additional observations from a re-analysis of the deposited data

How the results depend on the processing

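Counts below are of called members, replication-dependent genes first. None of the 26 called differences of members changed direction under any setting tried, and 84 of 390 values lost the call, not counting the rule of a fold change above 2, under which 1 call was left. With each replicate left out in turn, the counts ranged from 1 to 2 and from 1 to 3 for SFN against control, from 3 to 5 and from 6 to 7 for DAC+SFN against control, from 1 to 3 and from 4 to 6 for DAC+SFN against DAC, from 0 to 2 and from 0 to 5 for DAC+SFN against SFN, and from 1 to 2 and from 4 to 6 for the replicate number; they were 0 and 0 for DAC against control and for the interaction. DAC+SFN against SFN reached 2 and 5 without DAC+SFN replicate 3. Fits of 2 samples in a group have fewer samples, and the cause of other changes was not tested.

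The replicate numbers paired the samples, so the block belongs to the reported fit. With no replicate block, the counts were 0 and 0 for SFN against control, 3 and 3 for DAC+SFN against control, 0 and 0 for DAC+SFN against DAC, and 0 replacement genes for DAC+SFN against SFN. H2afz (adjusted p = 0.0925 by edgeR), H3f3a (0.358), H3f3b (0.139), H2afj (0.203), Hist1h2be (0.146) and Hist3h2a (0.0691) were the calls of DAC+SFN against control lost there.

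With a fold change above 2 also required, the counts were 0 and 0 for SFN against control, 1 and 0 for DAC+SFN against control, 0 and 0 for DAC+SFN against DAC, and 0 replacement genes for DAC+SFN against SFN. The Wald test of DESeq2 called 1 replication-dependent gene in DAC against control and 1 in DAC+SFN against SFN. With no filter on low counts, 1 was called in each of these, and 2 for the replicate number. With only the samples of the groups compared, the counts were 1 and 2 for DAC against control, 1 and 3 for DAC+SFN against DAC, and 2 and 6 for DAC+SFN against SFN. Without all samples numbered 2, a setting chosen after seeing the data, they were 0 and 1 for SFN against control, 2 replication-dependent genes for DAC+SFN against control, 0 for DAC+SFN against DAC and 0 for the replicate number, and 0 replacement genes for DAC+SFN against SFN. The size factors of DESeq2, a minimum of 10 counts, the robust fit and a prior count of 2 moved none of these counts by over 1.5 times. Below the filter a library held at most 25 counts of a replication-dependent gene, which limits the precision there.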
